A study of Solanum lycopersicum with 39 samples.

Results

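The genes described here are those whose transcripts were raised in tomato leaves both by long heat and by drought. A gene was included if its mean level was at least 5 FPKM, the number of fragments scaled by transcript length and library size, after 24 h of heat and after 5 days of drought, and if D was at least 2 at both points. D is the difference in log2(group mean FPKM + 1) from the untreated group of the same series, so a D of 2 is a rise of 2 log2 units. In addition, D had to lie below 1 after re-watering. Of 34075 genes in the tables, 9543 reached 5 FPKM at both points, 167 of these had both rises, and 140 also met the condition on re-watering. The other 27 were still at a D of 1 or more after re-watering. Because these values chose the 140 genes, every level at 0 h and 24 h of heat, and at day 0, day 5 and re-watering, is a description without a test.

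All plants were of the cultivar M82, an inbred processing tomato, and leaf RNA was sequenced from 3 libraries in each group, which the study calls biological replicates. In the heat series, plants were kept at 42 °C and 90% humidity for 2 h, 4 h, 12 h and 24 h (Heat-2h to Heat-24h), or for 24 h followed by 1 day in optimal conditions of 25 °C and 70% humidity (Heat-Recovery), and Heat-0h was untreated. In the drought series, water was withheld for 1 to 5 days (D-1d to D-5d), D-Recovery was re-watered for 1 day, and D-0d was sampled when soil water stood at about 80% of capacity. The labels give 38 days as the age of the seedlings, whereas the methods of the study state fewer days after sowing for the heated plants. Temperature and humidity changed together in the heat series, and all untreated plants were sampled at the start, so stress cannot be told apart from time of day or age.

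Heat above the growth optimum unfolds proteins, and plant cells answer through heat stress transcription factors that raise chaperones, many of them within the first hours. Drought acts mainly through the hormone abscisic acid, which closes stomata and switches on protective genes such as those of dehydrins and other late embryogenesis abundant proteins. A heated leaf also loses water by transpiration, and water shortage warms a leaf by closing its stomata. The files identify the 140 genes by gene ID only, so no function is given for single members, and they are grouped by the timing and size of their responses.

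The sum of FPKM per library was 559548 to 895476 in the heat series and 694973 to 815091 in the drought series. Fragment counts were not used here, so the depth behind each value is unknown. All 22 genes that the study names as light-harvesting antenna genes (LHCa and LHCb), markers of leaf mesophyll, reached 5 FPKM in both untreated groups. Their summed level was 1533 to 5112 FPKM at Heat-24h, against 39020 to 59580 FPKM at Heat-0h, and 1174 to 5326 FPKM at D-5d, against 31170 to 38190 FPKM at D-0d. At Heat-24h and D-5d the antenna genes were thus low where the 140 genes were high. This did not hold at every time, since the antenna sum was 50440 to 80620 FPKM at Heat-2h. Their part in the changes of a relative unit such as FPKM was not tested. In bulk leaf RNA, fewer cells of a type and less RNA per cell cannot be told apart. Replicate 2 of Heat-12h stood apart, with correlations over all genes of 0.889 and 0.914 with the other Heat-12h libraries and 0.905 with a Heat-4h library. Replicate 3 of D-2d correlated at 0.965 with a D-1d library and at 0.954 and 0.958 with its own group. Replicate 3 of D-5d, a group used by the rule, correlated at 0.968 with a D-3d library and at 0.942 and 0.948 with its own group, and held the highest antenna sum of D-5d (5326 FPKM). Without it the rule found 132 genes, of which 125 were among the 140. Replicate 3 of Heat-24h, also used by the rule, had the fewest genes at 1 FPKM or more in the heat series (14492). It held the lowest antenna sum of Heat-24h (1533 FPKM) and was the highest of its group in 93 of the 140 genes. Without this Heat-24h library the rule found 121 genes, of which 118 were among the 140.

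Tests were limited to comparisons between groups that had no part in the choice of genes. They used limma on log2(FPKM + 1) over all genes that reached 1 FPKM in 3 or more libraries of a table, with Benjamini-Hochberg adjustment. The fit took in all groups of a table, so its estimate of the spread also drew on groups that the rule used. A gene was called if its adjusted p did not exceed 0.05 and its mean differed by 1 log2 unit or more. Of the 140 genes, 138 passed this filter for heat and all 140 for drought. The rule itself selects genes high enough to pass, so these counts are read only against the share called over all genes tested.

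The 140 genes were low in untreated leaves. Their median group mean was 51.6 FPKM at Heat-24h, against 2.87 FPKM at Heat-0h, and 81.4 FPKM at D-5d, against 4.38 FPKM at D-0d. At Heat-0h 35 of them averaged under 1 FPKM, and at D-0d 24 did. Of all FPKM in a library, the 140 genes took 3.61% to 5.90% at Heat-24h, against 0.141% to 0.162% at Heat-0h, and 5.39% to 7.17% at D-5d, against 0.194% to 0.225% at D-0d. Every Heat-24h and D-5d library thus held a larger share than every untreated library of its series. In the heat series 6 genes were listed at 0 in all 3 Heat-0h libraries, and their D depends on the added 1 FPKM.

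**Figure D1:**
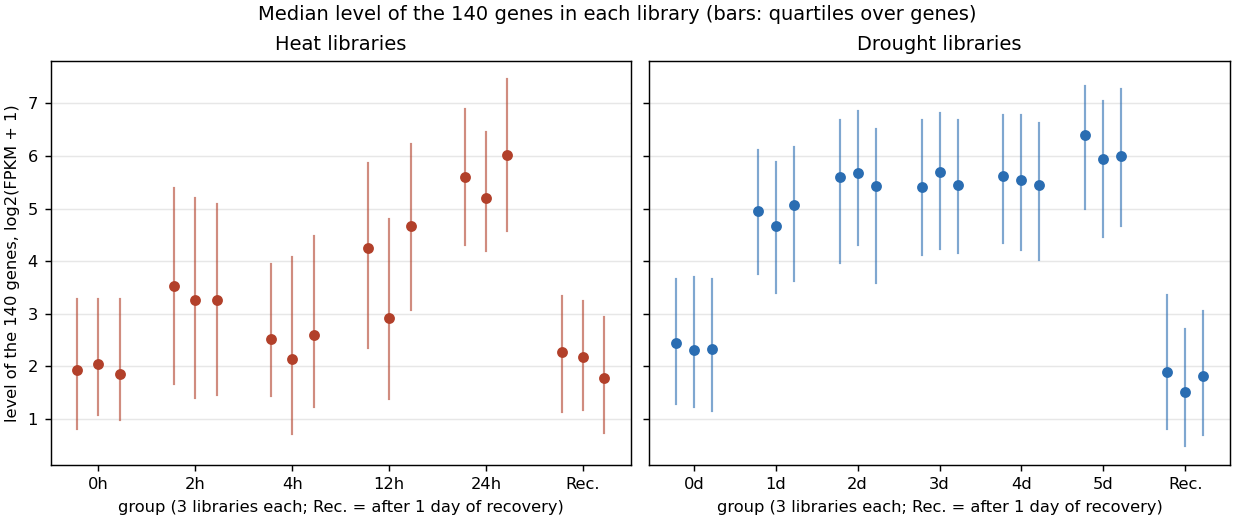
Median level of the 140 genes in each library, as log2(FPKM + 1), with bars from the lower to the upper quartile over genes, in the heat series (left) and the drought series (right). The 3 Heat-24h libraries sit at medians of 5.21 to 6.02 and the 3 D-5d libraries at 5.94 to 6.39, the Heat-12h libraries spread from 2.92 to 4.66, and both recovery groups lie between 1.501 and 2.28.

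D ranged from 2.01 to 9.14 at Heat-24h, with a median of 3.17. At D-5d the median was 3.13 and the highest 9.17. D was larger under drought in 67 genes and larger under heat in 73, and in 77 genes both values of D lay within 1 log2 unit of each other. Both reached 3 in 46 genes and 5 in 8 genes. The members nearest the limit were Solyc02g088510.4, Solyc12g009240.1 and Solyc12g088230.3, with a smaller D of 2.01, 2.00 and 2.00, and the genes just outside were Solyc08g067500.1, Solyc05g012210.4 and Solyc04g009900.4, each at 2.00 after rounding (1.998, 1.996 and 1.995). Membership depended on scaling. With libraries brought to a common median ratio, the rule found 174 genes, of which 118 were among the 140.

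**Figure D2:**
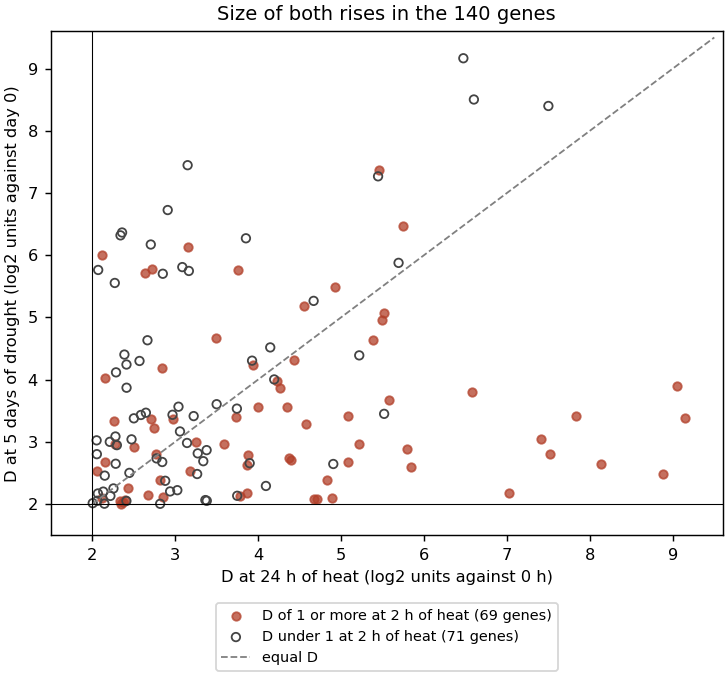
D at 24 h of heat (horizontal) against D at 5 days of drought (vertical) for each of the 140 genes, in log2 units, with filled points for the 69 genes whose D was 1 or more at 2 h of heat. Points lie on both sides of the dashed line of equal D, 67 above it and 73 below, and the thin lines mark the limit of 2.

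During heat the levels were high early, lower at 4 h and higher again from 12 h. Median D was 0.96, 0.34, 2.04 and 3.17 after 2, 4, 12 and 24 h. Over all genes tested it was -0.20, -0.41, -0.12 and -0.52 at the same times. A D of 1 or more was reached by 69 of the 140 genes at 2 h, where 3.77% of all genes tested did so, by 41 at 4 h (4.17%) and by 102 at 12 h (10.5%). These values share the Heat-0h libraries with the rule. Of the heated groups, Heat-24h held the highest mean in 118 genes, Heat-12h in 13, Heat-2h in 7 and Heat-4h in 2.

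The decline at 4 h was seen in libraries that the rule did not use. At Heat-4h against Heat-2h, 20 of 138 genes were lower, where 1.59% of all genes tested were called lower, and none was higher, where 0.137% were. The median log2 fold change was -0.53 in the 138 genes and -0.20 over all genes. In 57 genes every Heat-4h library was below every Heat-2h library, which was so for 19% of all genes tested. Without replicate 2 of Heat-4h, 13 genes were called lower. With libraries at a common median ratio 15 genes were lower and none was higher (median -0.37), and the split over all genes was 109 higher and 187 lower in place of 26 and 300.

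The largest decline was that of Solyc03g123540.3, with 4.67, 2.99 and 7.15 FPKM at Heat-4h, against 220, 346 and 184 FPKM at Heat-2h (log2 fold change -5.41 ± 0.93 SE, limma adjusted p = 0.00589). Solyc09g015000.4 had 27.9, 30.5 and 45.4 FPKM at Heat-4h, against 1017, 1175 and 845 FPKM at Heat-2h (-4.85 ± 0.71, limma adjusted p = 0.00171). In both genes the groups were far apart, and the second returned to 260 to 472 FPKM at Heat-24h. Solyc01g106820.3 had 4.37, 5.58 and 8.16 FPKM at Heat-4h, against 225, 203 and 140 FPKM at Heat-2h (-4.76 ± 0.73, limma adjusted p = 0.00235). By 4 h the libraries of Solyc03g123540.3 and Solyc01g106820.3 overlapped those of Heat-0h, and those of Solyc09g015000.4 remained above them. Solyc06g076520.1, among the highest of the 140 genes at Heat-24h (2413, 1529 and 3917 FPKM), had 447, 420 and 403 FPKM at Heat-4h, against 1941, 2388 and 1985 FPKM at Heat-2h (-2.31 ± 0.42, limma adjusted p = 0.00828).

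Between 4 h and 12 h many of the genes rose. At Heat-12h against Heat-4h, 57 of 138 were higher, where 4.8% of all genes tested were called higher, and 1 was lower, where 2.13% were. The median log2 fold change was 1.38 in the 138 genes and 0.26 over all genes. In 58 genes every Heat-12h library exceeded every Heat-4h library, against 17.9% of all genes tested. Replicate 2 of Heat-12h was the lowest of its group in 113 of the 140 genes. Without it 83 genes were higher, and without replicate 1 of Heat-12h 36 were. With only the groups compared in the fit fewer genes were higher, as given in the closing section on processing. Scaled to a common median ratio, which brought the median of all genes to 0.01, 39 genes were higher and 1 lower (median 1.11). Under that scaling the split over all genes turned, with 419 higher and 868 lower in place of 909 and 404.

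**Figure D3:**
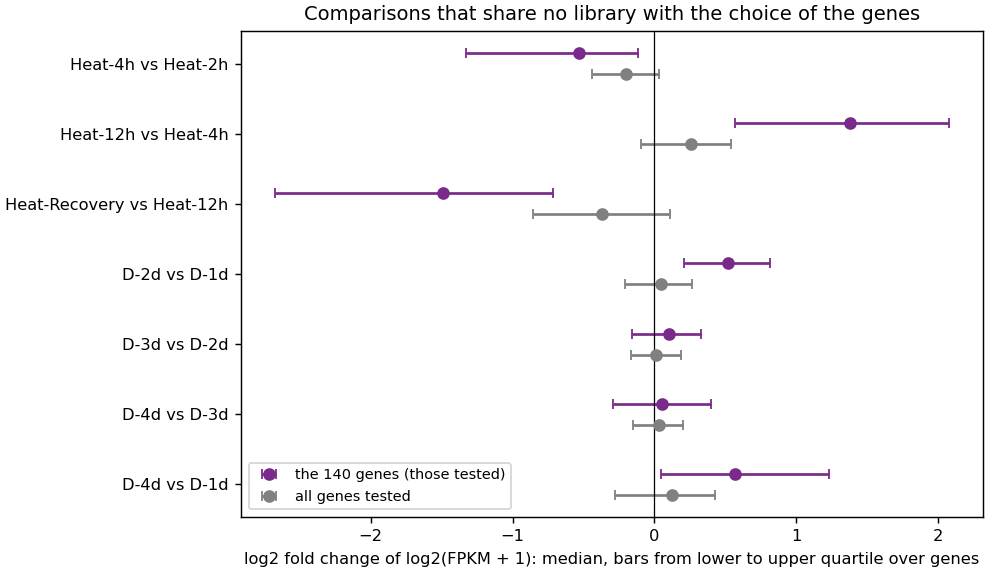
Median log2 fold change of log2(FPKM + 1), with bars from the lower to the upper quartile over genes, for the members tested (purple, 138 for heat and 140 for drought) and for all genes tested (grey), in the 7 comparisons that share no library with the choice of genes. The purple points lie at 1.38 for Heat-12h vs Heat-4h and at -1.49 for Heat-Recovery vs Heat-12h, and near 0 for the steps from day 2 to day 4 of drought.

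Solyc04g016470.4 rose most. It had 32.1, 18.9 and 52.9 FPKM at Heat-12h, against 2.03, 0.517 and 1.63 FPKM at Heat-4h (3.84 ± 0.40, limma adjusted p = 2.13e-05). Solyc03g096670.3 had 70.6, 16.0 and 134 FPKM at Heat-12h, against 4.42, 2.18 and 3.20 FPKM at Heat-4h (3.72 ± 0.54, limma adjusted p = 0.000457). The groups did not overlap in either gene, although replicate 2 of Heat-12h was the lowest in both. Solyc11g066100.2 had 239, 27.8 and 148 FPKM at Heat-12h, against 6.76, 6.22 and 8.42 FPKM at Heat-4h (3.64 ± 0.53, limma adjusted p = 0.000452), and was lower again at Heat-24h (54.9, 56.1 and 80.1 FPKM). The single gene that declined was Solyc12g009240.1, with 4.69, 5.67 and 5.63 FPKM at Heat-12h, against 59.7, 28.0 and 169 FPKM at Heat-4h (-3.41 ± 0.56, limma adjusted p = 0.00119). With 3 libraries against 3, an exact two-sided permutation test over 20 relabellings cannot give a p below 0.1, so single genes rest on the spread shared across the table.

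One day after the heat most of the genes were low. At Heat-Recovery against Heat-12h, 77 of 138 genes were lower, where 17.62% of all genes tested were called lower, and none was higher, where 4.21% were. The median log2 fold change was -1.49 in the 138 genes and -0.37 over all genes. In 74 genes every Heat-Recovery library was below every Heat-12h library, against 33.1% of all genes tested. Under the common median ratio 56 were lower and 1 higher, with a median of -1.12 and an all-gene split of 1817 higher and 1726 lower, in place of 797 and 3334. Without replicate 3 of Heat-12h 60 genes were lower and 3 higher.

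Solyc06g076020.3 had 1.19, 1.23 and 0.365 FPKM at Heat-Recovery, against 754, 122 and 474 FPKM at Heat-12h (-7.55 ± 0.64, limma adjusted p = 1.11e-06). Solyc06g036290.3 had 2.27, 2.87 and 1.00 FPKM at Heat-Recovery, against 1166, 188 and 726 FPKM at Heat-12h (-7.53 ± 0.47, limma adjusted p = 5.77e-08). In both, every recovered library was also below every Heat-0h library. That was so for 27 of 138 members and for 10514 of the 18923 genes tested, so it was common in the table. Solyc07g005420.2 was called as well, but it was listed at 0 in all Heat-Recovery and Heat-0h libraries and at 0, 573 and 212 FPKM at Heat-12h. An exact 0 beside values of this size can be a failed estimate, so no fold change is given for it.

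Relative to Heat-0h, median D was 0.12 at Heat-Recovery, while it was -0.53 over all genes tested. D was 1 or more in 30 of the 140 genes (1.93% of all genes tested) and -1 or less in 15 (25.2%). In 40 genes every recovered library stayed above every Heat-0h library, where 6.03% of all genes tested did so. With the common median ratio it was 69 genes, and 5504 in place of 1141 of all genes tested, so how many genes remained raised depends on the scaling. Solyc10g075110.2, for example, had 43.9, 37.9 and 32.3 FPKM at Heat-Recovery, against 22.6, 19.9 and 14.8 FPKM at Heat-0h. It was the highest of the 140 genes at Heat-24h, with 5125, 2523 and 2606 FPKM. Solyc02g081170.4, the next, had 3051, 3302 and 3475 FPKM at Heat-24h, against 143, 182 and 148 FPKM at Heat-0h, and was back at 184, 154 and 124 FPKM at Heat-Recovery.

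Under drought the genes were already high on the first day. Median D was 2.14, 2.69, 2.60, 2.60 and 3.13 on days 1 to 5 and -0.28 after re-watering, against 0.06, 0.15, 0.18, 0.22, 0.17 and 0.06 over all genes tested. On day 1 a D of 1 or more was reached by 111 of the 140 genes (7.32% of all genes tested), and on day 4 by 128 (14.9%). The D of day 1 was 64.9% of the D of day 5 in the median gene, whereas the D of 2 h of heat was 31.1% of that of 24 h. The mean was highest on day 5 in 89 genes, on day 2 in 20, on day 3 in 16, on day 4 in 13 and on day 1 in 2. In 74 genes both Heat-24h and D-5d held the highest mean of their series. These values share D-0d or D-5d libraries with the rule.

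Within the drought, the step to the second day and the change from day 1 to day 4 could be tested. At D-2d against D-1d, 15 of 140 genes were higher, where 0.691% of all genes tested were called higher, and none was lower, where 1.54% were. The median log2 fold change was 0.52 in the 140 genes and 0.05 over all genes. The count was 9 without replicate 2 of D-1d, 9 without replicate 1 and 8 without replicate 2 of D-2d, and 21 without replicate 3 of D-2d. By D-4d against D-1d, 42 genes were higher (4.56% of all genes tested) and 1 was lower (6.83%), with a median of 0.57 in the 140 genes and 0.12 over all genes. Under the common median ratio it was 35 higher and 5 lower, and the split over all genes was 623 and 1674 in place of 911 and 1364.

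Day 3 against day 2 and day 4 against day 3 gave no calls by limma in either direction. At an unadjusted p under 0.05 there were 27 (19.3%) and 39 (27.9%) of the 140 genes, where 13.8% and 16.1% of all genes tested were. Over all genes 0.00501% were called higher and 0.0852% lower at day 3, and 0.01% each way at day 4, so these steps gave almost no calls anywhere in the table. Without replicate 1 of D-3d, 1 of the 140 genes was higher and 4 were lower at D-4d against D-3d, and without replicate 3 of D-3d 1 was higher at D-3d against D-2d.

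Solyc02g086310.2 had 17.1, 23.8 and 10.3 FPKM at D-2d, against 1.19, 0.238 and 3.64 FPKM at D-1d (2.88 ± 0.46, limma adjusted p = 0.00259). It was listed at 0 in all untreated libraries of both series. Solyc04g009910.3 had 245, 178 and 79.5 FPKM at D-2d, against 27.9, 35.2 and 32.0 FPKM at D-1d (2.23 ± 0.34, limma adjusted p = 0.00185). Solyc04g051280.4 had 77.2, 88.7 and 52.3 FPKM at D-2d, against 19.4, 10.1 and 24.2 FPKM at D-1d (2.01 ± 0.30, limma adjusted p = 0.00184). The groups did not overlap in any of the 3 genes. Solyc10g075110.2, the single gene that was lower on day 4, had 683, 695 and 676 FPKM at D-4d, against 2112, 1033 and 2587 FPKM at D-1d (-1.38 ± 0.34, limma adjusted p = 0.0038).

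The later rises were led by Solyc12g010020.3, with 593, 649 and 556 FPKM at D-4d, against 41.7, 15.4 and 154 FPKM at D-1d (3.65 ± 0.73, limma adjusted p = 0.000895), and by its neighbour in number Solyc12g010030.3, with 422, 484 and 395 FPKM at D-4d, against 31.2, 11.1 and 115 FPKM at D-1d (3.60 ± 0.74, limma adjusted p = 0.00114). Their levels moved together in nearly every library, and in both the Heat-12h libraries were far apart (1458, 55.5 and 245 FPKM for the first). Solyc04g016470.4 had 15.1, 16.0 and 11.8 FPKM at D-4d, against 0.985, 0.3895 and 0.919 FPKM at D-1d (3.12 ± 0.62, limma adjusted p = 0.000821). This gene had the highest log2 fold change of the members at Heat-12h against Heat-4h and the third highest at D-4d against D-1d. Of the 42 genes that were higher at D-4d against D-1d, 18 (42.9%) were also higher at Heat-12h against Heat-4h, where 41.3% of the members tested were. The same 18 were 31.6% of the 57 genes, where 30% of the members were higher in the drought comparison. Both shares are close to those of all members.

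After re-watering no gene had a D of 1 or more, which the rule required. The rule set no lower bound, and 35 genes had a D of -1 or less, where 6.87% of all genes tested did. In 56 genes every D-Recovery library was below every D-0d library, against 21.5% of all genes tested. In 21 genes every one was above, against 28.2%. All genes tested include those with a D of 1 or more after re-watering, which the rule left out. The shares over all genes are therefore not like for like with those of the members. Solyc01g096320.3 had 1.05, 1.02 and 1.01 FPKM at D-Recovery, against 12.5, 29.98 and 7.81 FPKM at D-0d, after 534, 599 and 528 FPKM at D-5d. Solyc06g067980.3 had 0.451, 0.496 and 0.829 FPKM at D-Recovery, against 10.7, 17.4 and 4.24 FPKM at D-0d. Both genes thus ended below their untreated range.

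**Figure D4:**
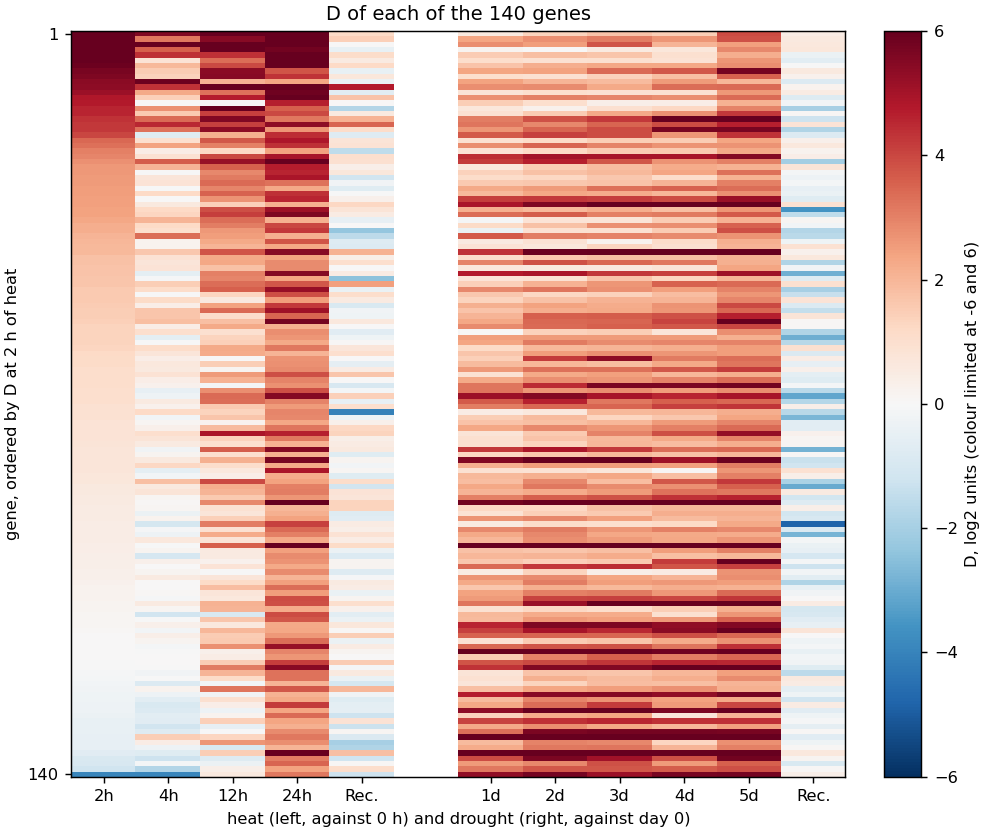
D of each of the 140 genes (rows, ordered by D at 2 h of heat) in the heat groups against 0 h (left) and the drought groups against day 0 (right), in log2 units with colours limited at -6 and 6. The top rows are deep red at 2 h and 24 h of heat and paler at 4 h, most rows are red from the first day of drought, and the re-watered column is near white or blue. In the heat recovery column 30 of the 140 rows have a D of 1 or more and 15 a D of -1 or less.

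The member with the largest smaller D was Solyc02g084850.3. It had 576, 245 and 634 FPKM at Heat-24h, against 0.398, 1.12 and 3.53 FPKM at Heat-0h, and 23770, 20100 and 16100 FPKM at D-5d, against 58.4, 56.9 and 59.4 FPKM at D-0d. It was the highest of the 140 genes at D-5d. Its heat response was late, with at most 1.21 FPKM in any library of Heat-2h and Heat-4h and 1.65, 1.10 and 16.6 FPKM at Heat-12h, whereas drought had brought it to 8510, 3933 and 8805 FPKM by the first day. It was higher at D-4d (22040, 20070 and 20530 FPKM) than at D-1d (1.65 ± 0.30, limma adjusted p = 0.000379).

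Of the next 4 genes in this order, 3 were likewise late in heat and high by the first day of drought. Solyc03g116390.4 had 89.3, 37.98 and 169 FPKM at Heat-24h, against 0.0769, 0 and 0 FPKM at Heat-0h, and 2785, 1918 and 1104 FPKM at D-5d, against 5.34, 4.78 and 2.90 FPKM at D-0d. Solyc10g078770.2 had 126, 59.4 and 233 FPKM at Heat-24h, against 0.231, 1.27 and 0.237 FPKM at Heat-0h, and 4327, 4046 and 2485 FPKM at D-5d, against 5.73, 4.13 and 6.06 FPKM at D-0d. Both stayed at or below 1.87 FPKM in all libraries of Heat-2h and Heat-4h. Solyc12g098900.2 had 56.8, 14.7 and 89.6 FPKM at Heat-24h, against 0.0581, 0.0510 and 0.0593 FPKM at Heat-0h, and 201, 163 and 214 FPKM at D-5d, against 2.24, 3.08 and 1.53 FPKM at D-0d. In Solyc03g116390.4, Solyc10g078770.2 and Solyc12g098900.2, replicate 3 of Heat-12h was ahead of the other Heat-12h libraries, with 19.5, 46.4 and 8.90 FPKM. In these 3 genes, day 1 of drought already stood above 100 FPKM in every library. After it they differed. Solyc03g116390.4 (1.68 ± 0.43, limma adjusted p = 0.00526) and Solyc10g078770.2 (1.48 ± 0.37, limma adjusted p = 0.00465) were higher at D-4d than at D-1d, whereas Solyc12g098900.2 had 129, 99.1 and 98.3 FPKM at D-4d, against 170, 123 and 161 FPKM at D-1d, which did not pass the test (-0.47 ± 0.22, limma adjusted p = 0.0971).

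Others among the first 12 responded in their own order. Solyc07g052620.1, the fourth in the order, was not high on day 1 of drought (6.98, 3.86 and 5.11 FPKM) and reached most of its level late in both series, with 166, 128 and 36.1 FPKM at D-5d after 23.4, 24.1 and 12.7 FPKM at D-4d. Solyc01g057000.3 was higher at D-4d (140, 114 and 107 FPKM) than at D-1d (24.8, 12.1 and 32.9 FPKM; 2.42 ± 0.32, limma adjusted p = 3.39e-05). Solyc02g087890.4 was likewise higher at D-4d (216, 194 and 160 FPKM) than at D-1d (54.9, 41.7 and 43.4 FPKM; 2.00 ± 0.28). In these 3 genes the change went on after the first day. Solyc06g050800.4 stood above Heat-0h by 2 h of heat (14.6, 17.0 and 10.8 FPKM, against 0.304, 1.32 and 1.26 FPKM at Heat-0h), and in drought its groups overlapped from day 2 to day 5. Solyc06g084760.3 was listed at 0 in every Heat-0h library, at 56.0, 66.0 and 0 FPKM at Heat-24h and at isolated values of up to 66.8 FPKM in other heat groups, so its place in the list rests on estimates that appear or vanish between replicates.

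**Figure D5:**
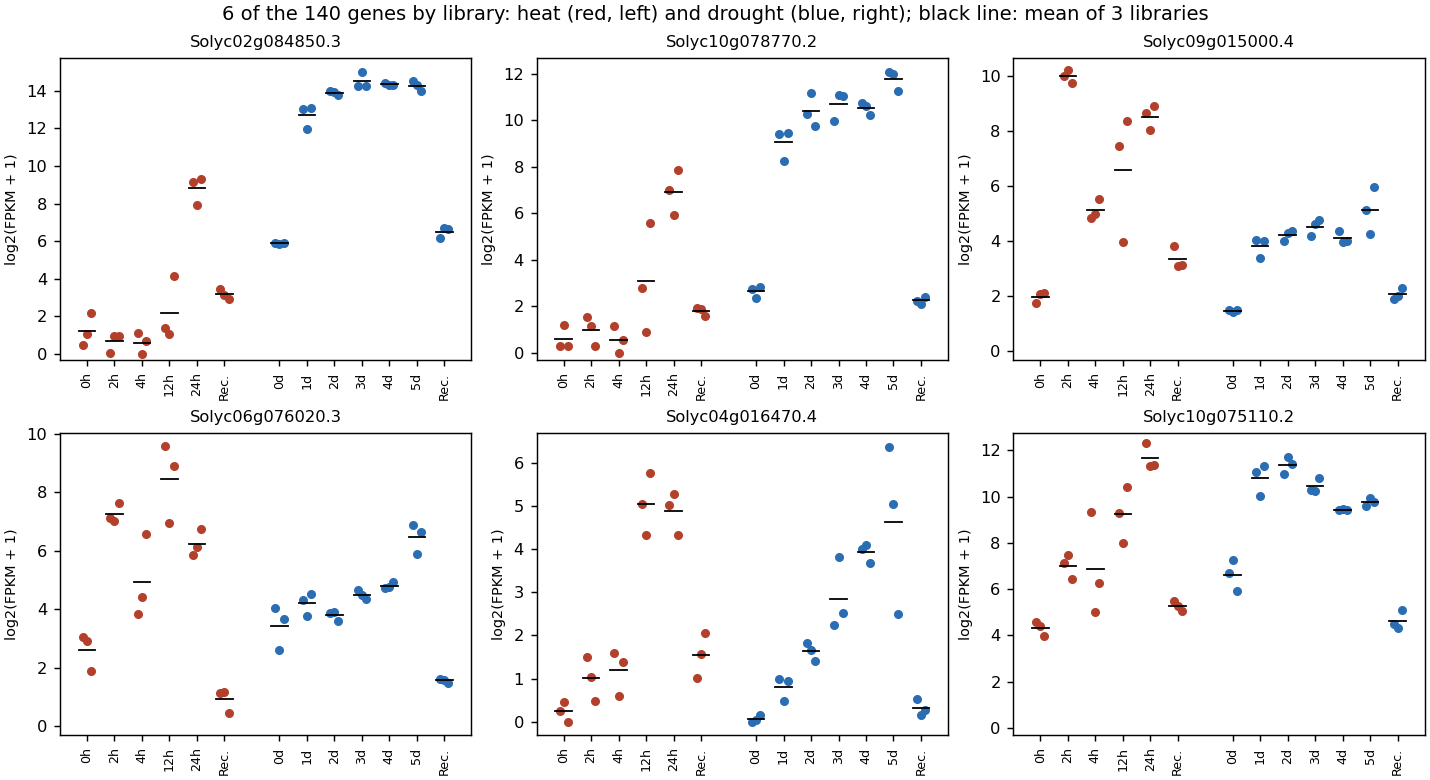
Level of 6 members in every library as log2(FPKM + 1), heat groups in red (left of each panel) and drought groups in blue (right), with a black line at the mean of the 3 libraries. Solyc02g084850.3 and Solyc10g078770.2 stay near the bottom at 2 h and 4 h of heat, with replicate 3 of Heat-12h already raised. They are high at 24 h of heat and from day 1 of drought. Solyc09g015000.4 and Solyc06g076020.3 are high by 2 h of heat and lower in drought, Solyc04g016470.4 rises late in both, and Solyc10g075110.2 declines within the drought.

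Some members responded far more to one stress than to the other. The following were chosen after their values were seen. Solyc01g102960.3 had 1160, 607 and 1605 FPKM at Heat-24h, against 0.843, 0.726 and 1.77 FPKM at Heat-0h, and reached 824, 1139 and 713 FPKM by 2 h. In drought it stayed at or below 4.16 FPKM to day 4 and had 17.0, 9.11 and 16.5 FPKM at D-5d. Solyc01g103920.3 had 2068, 1300 and 2404 FPKM at Heat-24h, against 3.09, 2.26 and 1.88 FPKM at Heat-0h, but 19.5, 12.3 and 16.9 FPKM at D-5d, against 0.750, 0.799 and 0.384 FPKM at D-0d. Both were under 1 FPKM in every D-0d library. In the opposite direction, Solyc08g077900.3 had 15.8, 17.3 and 15.1 FPKM at Heat-24h, against 0.825, 1.12 and 0.823 FPKM at Heat-0h, and 472, 360 and 654 FPKM at D-5d, against 1.58, 1.56 and 2.39 FPKM at D-0d. Solyc03g006360.3 had 14.8, 9.98 and 17.4 FPKM at Heat-24h, against 0.511, 3.54 and 1.74 FPKM at Heat-0h, and 96.2, 240 and 217 FPKM at D-5d, against 1.01, 0.990 and 1.75 FPKM at D-0d. The 2 tables were normalized separately, so levels were not compared between them by a test.

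Of the 140 genes, 53 had a D of 1 or more both at 2 h of heat and on day 1 of drought, 58 on day 1 of drought only, 16 at 2 h of heat only, and 13 at neither. A D of 1 or more on day 1 of drought was thus held by 76.8% of the 69 genes that were early in heat and by 81.7% of the other 71, against 79.3% of all members, so it was not more frequent among the early heat genes. The early times are 2 h and 1 day and are not matched in length.

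A gene listed by the study without a symbol was among the 140. Solyc12g010550.1, from the genes the study mentions for its *SlBBX31* lines, had 82.0, 65.1 and 54.3 FPKM at Heat-24h, against 6.18, 4.44 and 17.3 FPKM at Heat-0h. In drought it had 1582, 1581 and 1163 FPKM at D-4d, against 281, 199 and 304 FPKM at D-1d (2.47 ± 0.27, limma adjusted p = 9.62e-06). It had 1604, 1465 and 1621 FPKM at D-5d, against 25.1, 33.5 and 23.7 FPKM at D-0d. All libraries from D-1d to D-5d were above those of D-0d, and after re-watering it was at 22.4, 26.4 and 28.0 FPKM, which overlapped D-0d.

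None of the 14 genes that the study names with a symbol outside the antenna list met all conditions. *APX-2*, an ascorbate peroxidase that removes hydrogen peroxide, and *HSP17.6*, a small heat shock protein that keeps unfolding proteins from clumping, had a D of 2 or more at both points and each missed another condition. *APX-2* had 240, 200 and 237 FPKM at Heat-24h, against 1.40, 1.44 and 1.46 FPKM at Heat-0h, and 32.5, 11.02 and 48.7 FPKM at D-5d, against 0.173, 0.811 and 0.282 FPKM at D-0d. It was left out because D was still 1.42 after re-watering. *HSP17.6* had a D of 7.00 at Heat-24h and 2.19 at D-5d but only 3.97, 1.48 and 5.99 FPKM at D-5d. Like the early heat members it was lower at Heat-4h (39.3, 18.9 and 30.8 FPKM) than at Heat-2h (686, 965 and 649 FPKM; -4.68, limma adjusted p = 0.000691). *NCED3*, which encodes a rate-limiting enzyme of abscisic acid synthesis, had a D of 1.90 at Heat-24h and 1.40 at D-5d. Its Heat-24h libraries (32.1, 20.42 and 108.9 FPKM) overlapped those of Heat-0h (21.24, 12.02 and 7.66 FPKM), whereas its D-5d libraries did not overlap D-0d. *HSP90* had a D of 3.14 at Heat-24h and 0.74 at D-5d, *ABF3* 3.28 and -0.36, and *SlBBX31* 5.03 and 1.11, while *ERF5*, an ethylene-responsive factor, had 0.33 and 3.02. Earlier in heat *ERF5* was higher, with means of 44.7, 45.05 and 30.45 FPKM at Heat-2h, Heat-4h and Heat-12h, against 4.535 FPKM at Heat-0h.

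For comparison, 144 genes met the heat conditions and the minimum of 5 FPKM at both points but had a D under 1 at D-5d, and 164 met the drought conditions but had a D under 1 at Heat-24h. Median D of the heat-only genes was 0.87, 0.54, 1.84 and 2.60 at 2, 4, 12 and 24 h of heat, so they too dipped at 4 h. At Heat-4h against Heat-2h, 20 of 138 members (14.5%), 13 of 139 heat-only genes (9.35%) and 15 of 164 drought-only genes (9.15%) were lower. Calls at this step were thus also frequent in genes not raised at 24 h of heat. At Heat-12h against Heat-4h, 57 of 138 members tested (41.3%) and 70 of 139 heat-only genes (50.4%) were higher. The share was thus not larger among the members. At Heat-Recovery against Heat-12h, 77 of 138 members (55.8%), 88 of 139 heat-only genes (63.3%) and 36 of 164 drought-only genes (22%) were lower. Every recovered library stayed above every Heat-0h library in 45 of 139 heat-only genes and in 40 of 138 members. The decline after heat was thus shared with the heat-only genes. In the drought-only genes median D was 1.29, 1.78, 1.90, 2.23 and 2.44 on days 1 to 5, against 2.14, 2.69, 2.60, 2.60 and 3.13 in the members. At D-2d against D-1d, 15 of 140 members and 9 of 164 drought-only genes were higher, and at D-4d against D-1d 42 of 140 members (30%) and 66 of 164 drought-only genes (40.2%) were. No re-watering condition was set for the heat-only or the drought-only genes. After re-watering, D was -1 or less in 50 of 144 heat-only genes, 35 of 140 members and 16 of 164 drought-only genes. Every re-watered library was below every D-0d library in 61, 56 and 25 of them. Low levels after re-watering were thus not particular to the members. The sets were defined by levels at 24 h and day 5, and the differences between them were not tested.

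By their IDs the members lay on all 12 chromosomes, with 17 each on chromosomes 1, 2 and 3 and 3 on chromosome 5. There were 9 pairs of members, 18 genes in all, whose ID numbers on a chromosome lie at most 30 apart, which can mark tandem copies. Pairs were not always alike. Solyc01g099800.4 and Solyc01g099810.3 had similar levels in most groups, with 116, 114 and 239 FPKM and 83.3, 98.2 and 135 FPKM at Heat-24h. After the heat the first stayed at 37.97, 44.0 and 36.6 FPKM, against 13.8, 17.8 and 16.1 FPKM at Heat-0h, and the second was at 14.6, 12.2 and 11.9 FPKM, against 9.97, 12.9 and 14.7 FPKM at Heat-0h. Solyc02g084850.3, the member of highest level, lies next to Solyc02g084840.3, which had 128, 68.5 and 124 FPKM at D-5d, against 6.79, 4.93 and 7.42 FPKM at D-0d. Solyc02g077970.4 and Solyc02g077980.3 differed under heat, the first staying at or below 0.577 FPKM in all heat groups but Heat-24h (3.88, 5.80 and 5.69 FPKM). Reads of near-identical copies were placed at a single site by the alignment used for the heat series, so the split of reads within a pair is uncertain.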

How the data were processed

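For the heat and the drought series the authors deposited FPKM per gene and library, 34075 genes in each table. Per the methods of the study the heat reads were trimmed with Trimmomatic, aligned with TopHat2 to the tomato reference (ITAG4.0), keeping a single place per read, and quantified with Cuffdiff in stranded mode. The submitters' processing notes name the same tools for drought, with parameters not given in the sources used here. The untreated drought columns carry no replicate number tied to the labels. No column went unused.

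FPKM are not counts, so limma 3.58.1 (R 4.3.3, empirical Bayes with trend) was run on log2(FPKM + 1) with a joint fit per table, and the script was tested on simulated data. No test was run between tables. The 140 genes, the comparison sets and the gene lists were chosen with earlier results of these data known. Named members are the 12 with the largest smaller D, those the study lists, the 3 largest rises and falls called per comparison, the 3 nearest the limit, the 3 highest at Heat-24h and D-5d, and neighbours by ID. No gene ID matched the RefSeq table used (assembly SLM_r2.1), so product names, lists by keyword, coordinates and sequences are not given. Same-numbered replicates did not deviate together (correlations of -0.22 to 0.15). Alternatives were a pseudocount of 0.1, no filter, median-ratio scaling, only the groups compared, a replicate block, each library left out and no minimum fold change.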

Additional observations from a re-analysis of the deposited data

Results flagged for a closer look

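In 13 of the 140 genes every library after heat recovery was above every Heat-0h library while every re-watered library was below every D-0d library, and in 4 genes the reverse held. Over the 18423 genes tested in both tables these patterns were found in 1.04% and 14.8%, and over the 17345 of them with a D under 1 after re-watering, as the rule required, in 1.11% and 13%. These genes were picked out because the 2 recoveries went in opposite directions, and the difference was not tested. Solyc03g111100.1 had a D of 0.78 at Heat-Recovery and -3.61 at D-Recovery, and Solyc01g096320.3 had 1.44 and -3.13. Among the 4 of the reverse kind, Solyc09g064380.3 had -0.83 and 0.93, and Solyc06g036290.3 had -0.46 and 0.67. All these values share the untreated and re-watered libraries with the choice of genes, and the tables were scaled separately. Under the common median ratio, every heat recovery library was above Heat-0h in 69 members in place of 40. Over all genes tested it was 5504 in place of 1141. The counts of both patterns are given without that scaling.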

How the results depend on the processing

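The rule found 121 to 151 genes with each library left out, 166 with a pseudocount of 0.1, 126 with group medians and 174 with median-ratio scaling. For the named members, 72 calls were refitted 790 times in all. None reversed, 686 stayed past the thresholds and 104 did not. With only the groups compared in the fit, 30 genes were higher at Heat-12h against Heat-4h, 4 higher and 4 lower at D-4d against D-3d, and 3 lower at D-4d against D-1d, with fewer genes past the filter. Median-ratio scaling gave 1 higher at Heat-Recovery against Heat-12h, 5 lower at D-4d against D-1d, and 69 genes above Heat-0h in recovery. With no minimum fold change, 1 gene was higher at Heat-Recovery against Heat-12h, 25 at D-2d against D-1d, 1 at D-3d against D-2d and 66 at D-4d against D-1d, and 5 were lower at D-4d against D-1d.

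With each library left out in turn, genes lower at Heat-4h against Heat-2h numbered 13 to 24, higher at Heat-12h against Heat-4h 36 to 83 and lower 1 to 2. At Heat-Recovery against Heat-12h they numbered 0 to 3 higher and 56 to 91 lower. Higher at D-2d against D-1d were 8 to 21. At D-3d against D-2d 0 to 1 were higher, at D-4d against D-3d 0 to 1 higher and 0 to 4 lower, and at D-4d against D-1d 37 to 44 higher and 1 to 2 lower. With the replicate block, 59 were higher at Heat-12h against Heat-4h, 79 lower at Heat-Recovery against Heat-12h, 20 lower at Heat-4h against Heat-2h, 12 higher at D-2d against D-1d and 41 at D-4d against D-1d, and no count of calls moved by over 1.5 times. Same-numbered libraries share only a number. Depth is unknown, and members at 0 before treatment have a D set by the pseudocount. The causes of these shifts were not tested.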
